A study of Homo sapiens with 6 samples.

Results

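The 9 genes that carry interferon signals from the cell surface to the nucleus were followed in RT-112 cells, an established human line from a bladder cancer, after knockdown of PPP2R2A, which encodes a regulatory B subunit of protein phosphatase 2A (PP2A). The genes were chosen by name (IFNAR1, IFNAR2, IFNGR1, IFNGR2, JAK1, TYK2, STAT2, IRF1 and IRF9), and every microarray probe set that the platform table assigns to 1 of them alone was taken. That gave 20 of the 54675 probe sets, for 8 of the 9 genes, and no probe set carried STAT2 as its only symbol, so STAT2 was not analysed here. Groups of 2 arrays each, A and B, were compared: cells given PPP2R2A siRNA 1, cells given PPP2R2A siRNA 2, and cells given a scramble siRNA. All groups were transfected at 50 nM with Lipofectamine RNAiMAX, given a second transfection after 24 h and collected 24 h after that, and no interferon treatment is named in the labels. The design text calls A and B technical duplicates, so every p-value below measures the spread between duplicate arrays and not between independent cultures.

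Interferons are secreted proteins of immune defence. Type I interferons, which many cells release on sensing foreign nucleic acid, bind IFNAR1 and IFNAR2, whose inner tails carry the kinases TYK2 and JAK1, and interferon gamma, a product of T and NK cells, binds IFNGR1 and IFNGR2, which also use JAK1. The kinases phosphorylate STAT proteins. STAT2 with a partner STAT and IRF9 forms ISGF3, which binds the interferon-stimulated response element (ISRE) in antiviral genes, whereas STAT dimers bind the gamma-activated site (GAS), and IRF1 is a transcription factor that is itself made from a GAS-driven gene.

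The promoters of the 2 transcription factors measured here are shown because IRF9 had the largest change of the 8 measured genes against scramble, and IRF1 the largest difference between the siRNAs. RefSeq (GRCh38.p14) windows from 250 bases before to 50 after a gene's start were in the table used here for 8 of the 9 genes, 12 windows in all, and not for IFNAR2. Both strands of each were searched for the ISRE letters GAAANNGAAA and the GAS letters TTCNNNGAA (the motifs can overlap in part). No member window held the ISRE letters, which occurred in 3.57% of the 35116 promoter windows of the table, and only the windows of IRF1 and IRF9 held the GAS letters, which occurred in 7.66%. The IRF1 window lies on the minus strand at chr5:132490724-132491023, with the match TTCCCCGAA at positions -124 to -116 from the start. The IRF9 window lies on the plus strand at chr14:24161015-24161314, with the match TTCTGGGAA at positions -63 to -55. Capitals mark the GAS match, which is a match of letters and not a measured binding site.
IRF1: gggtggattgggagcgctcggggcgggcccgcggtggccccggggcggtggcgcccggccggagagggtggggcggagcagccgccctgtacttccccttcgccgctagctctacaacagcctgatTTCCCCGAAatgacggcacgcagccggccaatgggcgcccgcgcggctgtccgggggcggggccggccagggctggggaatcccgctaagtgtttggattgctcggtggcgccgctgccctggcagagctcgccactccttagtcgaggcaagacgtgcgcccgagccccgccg
IRF9: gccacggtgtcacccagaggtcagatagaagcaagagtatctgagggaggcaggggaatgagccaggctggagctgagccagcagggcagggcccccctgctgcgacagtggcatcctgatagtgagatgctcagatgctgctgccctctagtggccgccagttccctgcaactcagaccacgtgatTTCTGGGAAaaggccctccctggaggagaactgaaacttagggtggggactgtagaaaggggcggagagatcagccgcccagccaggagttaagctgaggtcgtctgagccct

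The signals are linear intensities per probe set, scaled by the submitters to nearly the same trimmed mean on every array, and the number of arrays limits their precision. PPP2R2A itself read 336 and 397 with siRNA 1, 510 and 533 with siRNA 2, and 1381 and 1589 with scramble (probe set 202313_at), a fall in both comparisons (log2 change -2.02, adjusted p = 0.0403, and log2 change -1.51, adjusted p = 0.0461), and both calls were lost when any 1 array was left out. Probe set 228013_at was also lower on every knockdown array, and 1 siRNA 1 label spells the gene PPP2ARA. Probe set 236492_at showed no such fall, with 334 and 221 with siRNA 1, 179 and 272 with siRNA 2, and 287 and 281 with scramble. Duplicate arrays correlated at 0.979 to 0.980 on the log2 scale over the 12735 genes tested below, each read on its brightest probe set. The 3'/5' ratio of the ACTB control probe sets, a measure of how far labelled RNA reaches along the transcript, was 6.52 and 7.82 with siRNA 1, 7.47 and 12.4 with siRNA 2, and 5.43 and 5.94 with scramble, so every knockdown array lay above both scramble arrays. The GAPDH ratio was 0.943 to 1.02 on all 6 arrays. The part of the ACTB difference in the results below was not tested. The cells carried epithelial transcripts throughout: the 7 of 8 epithelial markers found in the table summed to 103594 to 108261 with siRNA 1, 91713 to 98554 with siRNA 2, and 104563 to 108131 with scramble. Among them KRT8, a keratin, read 9082 and 9489 with siRNA 1, 6559 and 6333 with siRNA 2, and 10077 and 9755 with scramble (adjusted p = 0.0558 with siRNA 2 and 0.084 between the siRNAs). The 5 of 7 leukocyte markers found summed to 205 to 226 with siRNA 1, 144 to 173 with siRNA 2, and 158 to 216 with scramble. PTPRC, a general leukocyte marker, stayed at 27.6 or below on every array. Only CD3E and ITGAM of that list were tested below. CD3E read 76.7 and 110.9 with siRNA 1, 10.4 and 43.5 with siRNA 2, and 17.98 and 59.1 with scramble. Its log2 difference between the siRNAs was 2.05 (limma, adjusted p = 0.303). ITGAM read 64.7 and 58.6 with siRNA 1, 104.4 and 41.8 with siRNA 2, and 68.3 and 103 with scramble. Its log2 difference was -0.10 (limma, adjusted p = 0.93). The 7 fibroblast and endothelial markers summed to 6913 to 7811 with siRNA 1, 6022 to 6083 with siRNA 2, and 6278 to 6572 with scramble. Most of that sum was LUM, a matrix proteoglycan, which read 6351 and 5518 with siRNA 1, 4546 and 4520 with siRNA 2, and 4975 and 4715 with scramble. COL1A1, a collagen of the same list, was instead highest with siRNA 2: 1034 and 867 with siRNA 1, 1123 and 1175 with siRNA 2, and 1116 and 960 with scramble. Of the 5 markers of that list tested below, 2 had a log2 change above 0 with siRNA 1 and 1 with siRNA 2. LUM thus ordered the groups as IRF1 does below, and COL1A1 did not. KRT8 was also lower with siRNA 2 than in the other groups. The part of these markers in the results below was not tested. In bulk RNA, fewer cells of a type and less RNA per cell cannot be told apart.

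Differences were tested with limma on log2(signal + 1) over the brightest probe set of each of 12735 genes that passed a filter on dim signals, with Benjamini-Hochberg adjustment over all of them. A gene was called when its adjusted p was under 0.05 and its change at least 1.5-fold. None of the 8 measured members was called with siRNA 1 (0.393% of all genes were), with siRNA 2 (0.597%), with the mean of both siRNAs against scramble (0.51%) or between the siRNAs (0.212%). At an unadjusted p under 0.05, 3 of the 8 were higher and none lower with siRNA 1, against 16.2% of all genes in either direction. With siRNA 2, 1 was higher and 1 lower, against 20.8% of all genes. Between the siRNAs, 3 were higher with siRNA 1 and none lower, against 18.7%. IFNGR1, IRF1 and IRF9 made up the 3 with siRNA 1, IRF9 and IRF1 the 2 with siRNA 2, and IFNAR1, IFNGR1 and IRF1 the 3 between the siRNAs. The median log2 change of the 8 genes was 0.20 with siRNA 1, -0.05 with siRNA 2 and 0.27 between the siRNAs, beside 0.01, 0.02 and -0.01 over all genes tested.

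**Figure D1:**
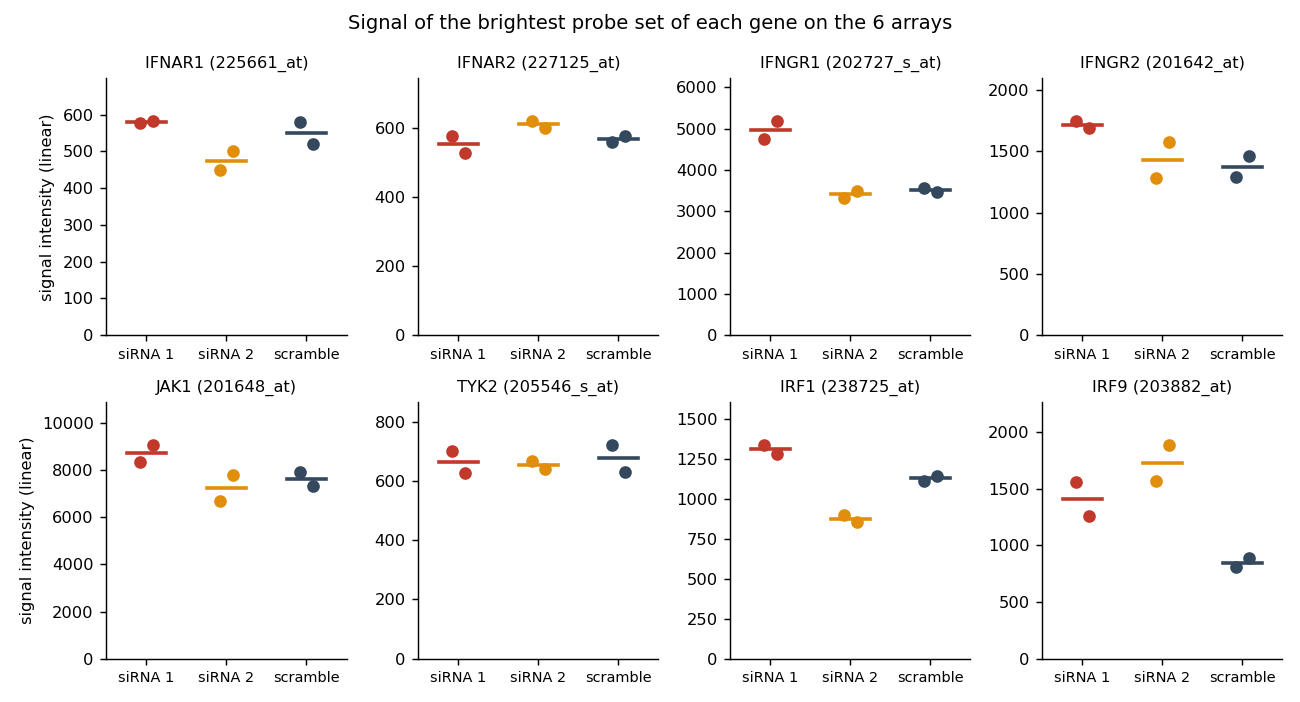
Signal intensity (linear, y axis from 0) of the brightest probe set of each of the 8 measured genes, with siRNA 1, siRNA 2 and scramble on the x axis; each point is an array and each bar the mean of 2 arrays. All 4 knockdown arrays of IRF9 (1256 to 1887) lie above both scramble arrays (811 and 886), and IRF1 is highest with siRNA 1 and lowest with siRNA 2.

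Of the type I receptor chains, IFNAR1 is the signalling chain that binds TYK2. Its brightest probe set, 225661_at, read 578 and 582 with siRNA 1, 449 and 500 with siRNA 2, and 579 and 520 with scramble. The siRNA 1 arrays lay at the top of the scramble range and both siRNA 2 arrays below it. The log2 change was 0.08 with siRNA 1 (SE 0.10, adjusted p = 0.747) and -0.21 with siRNA 2 (SE 0.10, adjusted p = 0.327). Another probe set, 225669_at, read 479 and 433 with siRNA 1, 358 and 424 with siRNA 2, and 522 and 522 with scramble, lower on every knockdown array. Its log2 change was -0.19 with siRNA 1 (adjusted p = 0.566) and -0.42 with siRNA 2 (adjusted p = 0.205), so these 2 IFNAR1 probe sets did not share a sign with siRNA 1. The remaining IFNAR1 probe sets, 236478_at and 204191_at, averaged 130 ± 17.4 and 112 ± 4.96 with siRNA 1, 134 ± 22.8 and 142 ± 17.9 with siRNA 2, and 140 ± 27.2 and 150 ± 25.9 with scramble (SD, n = 2 each).

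IFNAR2, the chain that binds JAK1, read 577 and 528 with siRNA 1, 619 and 601 with siRNA 2, and 558 and 576 with scramble on probe set 227125_at. Only the siRNA 2 arrays stood clear of scramble, by a log2 change of 0.11 (SE 0.09, adjusted p = 0.55), and siRNA 1 differed by -0.04 (SE 0.09, adjusted p = 0.862). Probe set 204785_x_at, whose suffix marks probes that can also bind other transcripts, went the other way: 581 and 551 with siRNA 1, 546 and 494 with siRNA 2, and 634 and 656 with scramble. Its log2 change was -0.19 with siRNA 1 (adjusted p = 0.497) and -0.31 with siRNA 2 (adjusted p = 0.229). The remaining probe set, 204786_s_at, averaged 271 ± 7.44 with siRNA 1, 332 ± 94 with siRNA 2 and 316 ± 74.4 with scramble (SD, n = 2 each). The sign for IFNAR2 with siRNA 2 therefore depended on the probe set.

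IFNGR1, the ligand-binding chain of the interferon gamma receptor, read 4754 and 5183 with siRNA 1, 3325 and 3499 with siRNA 2, and 3570 and 3478 with scramble on probe set 202727_s_at. Both siRNA 1 arrays were above all the others, while the siRNA 2 and scramble ranges overlapped. The log2 change with siRNA 1 was 0.49 (95% interval 0.27 to 0.72, adjusted p = 0.114), a 1.41-fold difference that missed the threshold, and with siRNA 2 it was -0.05 (95% interval -0.28 to 0.18, adjusted p = 0.805). The second IFNGR1 probe set, 211676_s_at, read 1013 and 1018 with siRNA 1, 720 and 626 with siRNA 2, and 859 and 737 with scramble. It placed siRNA 1 above scramble by 0.35 (adjusted p = 0.352) and siRNA 2 below it by a log2 change of -0.24 (adjusted p = 0.402). The third, 242903_at, averaged 52.6 ± 30.2 with siRNA 1, 40.6 ± 14.6 with siRNA 2 and 52.4 ± 4.36 with scramble (SD, n = 2 each) and did not pass the filter.

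IFNGR2, the accessory chain, has 1 probe set, 201642_at, which read 1745 and 1692 with siRNA 1, 1286 and 1572 with siRNA 2, and 1286 and 1465 with scramble. Both siRNA 1 arrays were the highest of the 6, and the siRNA 2 range covered that of scramble. The log2 change was 0.32 with siRNA 1 (SE 0.13, adjusted p = 0.337) and 0.05 with siRNA 2 (SE 0.13, adjusted p = 0.868). The siRNA 2 value turned on its 2 arrays, at 0.20 without array A and -0.09 without array B.

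JAK1 is the kinase common to both receptors. Its brightest probe set, 201648_at, read 8328 and 9054 with siRNA 1, 6661 and 7790 with siRNA 2, and 7895 and 7315 with scramble. The siRNA 1 arrays were the highest, and the siRNA 2 and scramble arrays overlapped, with log2 changes of 0.19 (SE 0.12, adjusted p = 0.492) and -0.08 (SE 0.12, adjusted p = 0.752). The other JAK1 probe sets placed siRNA 2 lower. Probe set 1552611_a_at read 1632 and 1754 with siRNA 1, 1115 and 1160 with siRNA 2, and 1605 and 1629 with scramble. Its log2 change was 0.07 with siRNA 1 (adjusted p = 0.807) and -0.51 with siRNA 2 (95% interval -0.75 to -0.26, adjusted p = 0.118).

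Probe set 1552610_a_at of JAK1 had the same order of groups, with 512 and 511 on the siRNA 1 arrays, 383 and 328 on the siRNA 2 arrays, and 552 and 446 on the scramble arrays. Its log2 change with siRNA 2 was -0.48 (adjusted p = 0.211). The "_a_at" suffix denotes probes shared by several transcripts of 1 gene. Probe set 239695_at averaged 79.9 ± 17.5 with siRNA 1, 85.9 ± 13.4 with siRNA 2 and 103 ± 6.44 with scramble (SD, n = 2 each), and 240613_at averaged 25.0 ± 29, 17.2 ± 3.79 and 21.4 ± 0.886 in the same groups, below the filter. Across the 4 JAK1 probe sets tested, the log2 change was between -0.37 and 0.19 with siRNA 1, and between -0.51 and -0.08 with siRNA 2.

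TYK2, the kinase bound to IFNAR1, read 701 and 625 with siRNA 1, 668 and 640 with siRNA 2, and 721 and 631 with scramble (205546_s_at), and the 3 groups overlapped. The log2 changes were -0.03 (95% interval -0.32 to 0.26) with siRNA 1 and -0.05 (95% interval -0.34 to 0.25) with siRNA 2.

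IRF9, the DNA-binding part of ISGF3, had the largest change against scramble of the 8 members with either siRNA. Its 1 probe set, 203882_at, read 1560 and 1256 with siRNA 1, 1568 and 1887 with siRNA 2, and 811 and 886 with scramble. All 4 knockdown arrays were above both scramble arrays, and the siRNA 1 array A and siRNA 2 array A differed by little. The means were 1408 ± 215 with siRNA 1, 1727 ± 225 with siRNA 2 and 848 ± 53.3 with scramble (SD, n = 2 each). The log2 change was 0.72 with siRNA 1 (95% interval 0.31 to 1.14, 1.65-fold, adjusted p = 0.156) and 1.02 with siRNA 2 (95% interval 0.61 to 1.43, 2.03-fold, adjusted p = 0.0695). For the mean of both siRNAs it was 0.87 (adjusted p = 0.0797). Both siRNAs were set against the same 2 scramble arrays. None of these passed the threshold, and the siRNAs differed from each other by -0.30 (95% interval -0.71 to 0.12, adjusted p = 0.392).

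The call for IRF9 depended on how limma's prior variance was set. With a prior that follows signal intensity, IRF9 was called with siRNA 1 (adjusted p = 0.0103), with siRNA 2 (adjusted p = 0.00129) and for their mean (adjusted p = 0.00147). That setting called 2.35%, 3.71% and 2.18% of all genes in the same comparisons, and 2.84% between the siRNAs, where it called no member. With that prior IFNGR1 had adjusted p = 0.0048 with siRNA 1 and 0.00245 between the siRNAs, and was not called because its differences, 1.41-fold and 1.45-fold, were under the 1.5-fold minimum. IRF1 likewise had adjusted p = 0.0384 with siRNA 2 and 0.00544 between the siRNAs, where its difference was 1.49-fold.

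IRF1 behaved differently, with the siRNAs on opposite sides of scramble. Probe set 238725_at read 1336 and 1279 with siRNA 1, 898 and 853 with siRNA 2, and 1111 and 1144 with scramble, and the 3 groups did not overlap. The log2 change was 0.21 with siRNA 1 (95% interval 0.00 to 0.42, adjusted p = 0.302) and -0.37 with siRNA 2 (95% interval -0.58 to -0.16, adjusted p = 0.109). The second probe set, 202531_at, read 1207 and 1302 with siRNA 1, 957 and 867 with siRNA 2, and 1030 and 923 with scramble. There the siRNA 1 arrays were again the highest, by 0.36 (adjusted p = 0.31), but the siRNA 2 and scramble arrays overlapped (log2 change -0.10, adjusted p = 0.704).

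**Figure D2:**
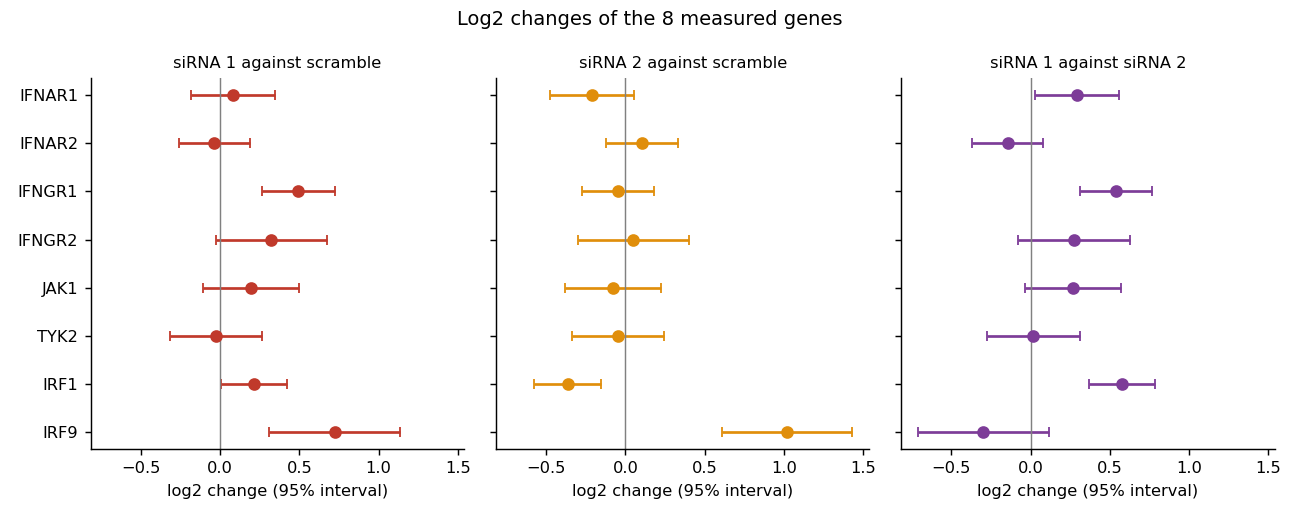
Log2 change (x axis) of the 8 measured genes for siRNA 1 against scramble, siRNA 2 against scramble and siRNA 1 against siRNA 2; points are limma estimates from 2 arrays a group and bars are unadjusted 95% intervals. IRF9 stands to the right with both siRNAs (0.72 and 1.02), whereas IFNGR1 and IRF1 stand to the right in the comparison between the siRNAs (0.54 and 0.58).

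Both siRNAs target the same transcript and lowered it, so the members were also compared between them. IRF1 was higher with siRNA 1 than with siRNA 2 by a log2 difference of 0.58 (95% interval 0.37 to 0.79, 1.49-fold, adjusted p = 0.0795), and IFNGR1 by 0.54 (95% interval 0.31 to 0.77, 1.45-fold, adjusted p = 0.0877). IFNAR1 differed by 0.29 (adjusted p = 0.24), IFNGR2 by 0.27 (adjusted p = 0.364) and JAK1 by 0.27 (adjusted p = 0.31). IFNAR2 differed by -0.14 (adjusted p = 0.443) and TYK2 by 0.02 (adjusted p = 0.951). No difference passed the threshold.

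The groups of 2 arrays did not overlap for 5 of the 8 members between siRNA 1 and scramble, all higher with siRNA 1 (IFNGR1, IFNGR2, JAK1, IRF1 and IRF9), and 49.4% of all genes had no overlap there. With siRNA 2 the arrays did not overlap for IFNAR2 and IRF9, which were higher, and IFNAR1 and IRF1, which were lower, against 52.4% of all genes. Between the siRNAs they did not overlap for 7 of the 8, with IFNAR1, IFNGR1, IFNGR2, JAK1 and IRF1 higher and IFNAR2 and IRF9 lower with siRNA 1, against 50.7% of all genes. The first 2 counts lie near the share of all genes and carry no more than that. The third is of 8 genes on 2 arrays a group, and limma called no member between the siRNAs (lowest adjusted p = 0.0795, IRF1).

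Fitting all 23969 probe sets that passed the filter gave no call among the 18 of the members. The share of all probe sets called was 0% with siRNA 1, 0.00417% with siRNA 2, 0.0125% for the mean of both and 0% between the siRNAs. Unadjusted, 7 of the 18 were higher with siRNA 1 than with siRNA 2 at p under 0.05 and none lower, against 16.2% of all probe sets in either direction. The lowest adjusted p among them was 0.117, for IRF1 238725_at. The difference ran from 0.54 to 0.60 over the 2 IFNGR1 probe sets, from 0.46 to 0.58 over the 2 IRF1 probe sets and from -0.11 to 0.57 over the 4 JAK1 probe sets. It ran from -0.33 to 0.29 over the 4 IFNAR1 probe sets and from -0.26 to 0.12 over the 3 IFNAR2 probe sets, so its sign there depended on the probe set. Probe sets of 1 gene share its RNA and are not replicates. With the prior that follows intensity, IFNGR1 211676_s_at passed between the siRNAs (adjusted p = 0.0244), as did 2.55% of all probe sets.

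**Figure D3:**
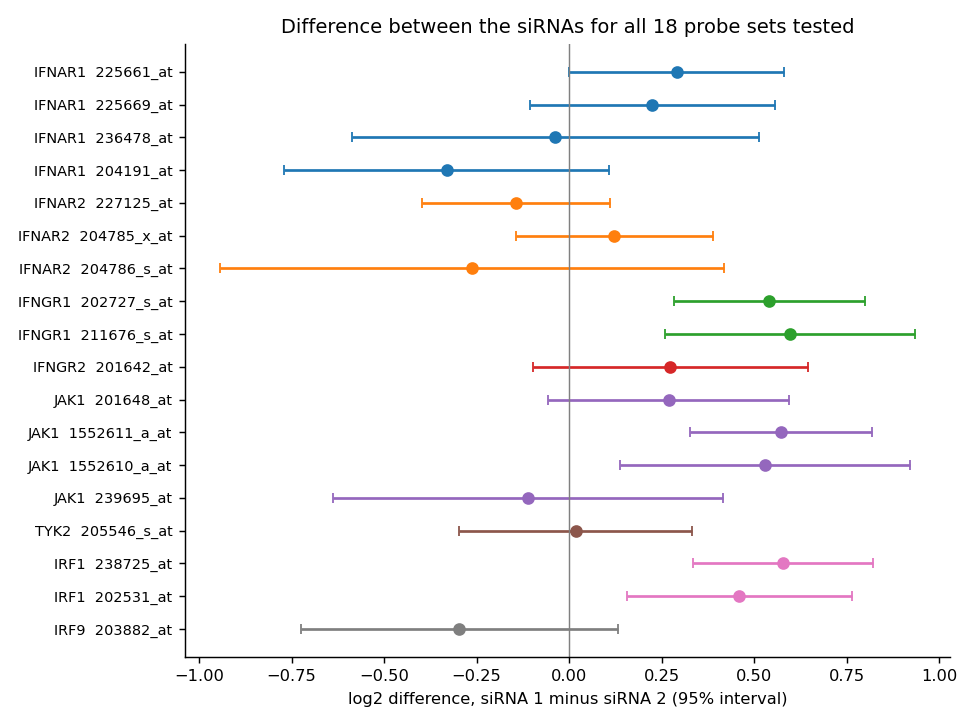
Log2 difference, siRNA 1 minus siRNA 2 (x axis), for the 18 tested probe sets of the 8 genes, coloured by gene; bars are unadjusted 95% intervals from limma over 2 arrays a group. Both IFNGR1 and both IRF1 probe sets lie between 0.46 and 0.60, while the IFNAR1, IFNAR2 and JAK1 probe sets fall on both sides of 0.

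The genes that ISGF3 switches on were read from a list of 29, all of which were tested. IFI44L, an antiviral gene, rose with both siRNAs: it read 572 and 493 with siRNA 1, 578 and 539 with siRNA 2, and 80.4 and 92.9 with scramble, a log2 change of 2.61 (adjusted p = 0.0368) and 2.68 (adjusted p = 0.0385). IFI6, which encodes a small interferon-induced membrane protein, read 1079 and 1072 with siRNA 1, 1526 and 1385 with siRNA 2, and 627 and 735 with scramble, and rose with siRNA 2 (log2 change 1.10, adjusted p = 0.049) but missed the threshold with siRNA 1 (0.66, adjusted p = 0.107). XAF1, which promotes apoptosis, read 365 and 248 with siRNA 1, 302 and 289 with siRNA 2, and 102 and 109 with scramble (log2 change 1.51, adjusted p = 0.08, and 1.48, adjusted p = 0.0577). IFITM1, which blocks virus entry, read 420 and 583 with siRNA 1, 533 and 556 with siRNA 2, and 265 and 225 with scramble, with adjusted p = 0.121 and 0.0754. IFI27 read 1125 and 920 with siRNA 1, 899 and 1341 with siRNA 2, and 457 and 603 with scramble, with adjusted p = 0.209 and 0.124. These 5 had each knockdown array above both scramble arrays, and the rule that named them, the size of the mean change over both siRNAs, favours such genes.

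Other targets on the list, chosen after their values were seen, read lower with siRNA 2. MX1, an antiviral GTPase, read 152 and 239 with siRNA 1, 51.0 and 68.3 with siRNA 2, and 89.4 and 135 with scramble, a difference of 1.68 between the siRNAs (adjusted p = 0.107). Both siRNA 2 values lay below the medians of their arrays, 75.2 and 69.3. IFIT2, an interferon-induced RNA-binding protein, read 3295 and 2867 with siRNA 1, 1867 and 1275 with siRNA 2, and 2556 and 2447 with scramble (adjusted p = 0.119 between the siRNAs). ISG20, an exonuclease, read 620 and 635 with siRNA 1, 404 and 361 with siRNA 2, and 507 and 569 with scramble (adjusted p = 0.0825 between the siRNAs). SAMD9, an antiviral factor, had log2 changes of -0.17 with siRNA 1 and -0.37 with siRNA 2. With OASL, given below, these are the 5 of the 29 that were lower with siRNA 2 at an unadjusted p under 0.05, and 11 were higher. Of all 12735 genes tested, 1115 were lower and 1529 higher at that threshold.

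As a list, 27 of the 29 ISGF3 targets had a log2 change above 0 with siRNA 1, at a median of 0.48, and 16 of the 29 with siRNA 2, at a median of 0.06, beside medians of 0.01 and 0.02 over all genes. The calls were 1 higher with siRNA 1 and 2 higher with siRNA 2, and none lower, and all of them were lost when any 1 array was left out. With the prior that follows intensity, 7 were called higher with siRNA 1, and 6 higher and 2 lower with siRNA 2. Between the siRNAs it called 5, all higher with siRNA 1. Of all genes it called 2.35% with siRNA 1, 3.71% with siRNA 2 and 2.84% between the siRNAs. This list was put together with results from these arrays known, so its direction is not independent of them.

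Of 24 IRF1 and interferon gamma targets, 19 were tested and none was called. With the prior that follows intensity, 1 was called higher with siRNA 1 than with scramble, none with siRNA 2, and 3 were called higher with siRNA 1 than with siRNA 2. That prior called 2.35%, 3.71% and 2.84% of all genes in these comparisons, in that order. With siRNA 1, 13 of the 19 were above 0 (median 0.21), with siRNA 2 6 were (median -0.04), and between the siRNAs 14 were (median 0.25), beside all-gene medians of 0.01, 0.02 and -0.01. CXCL10, a chemokine that draws T cells, read 714 and 890 with siRNA 1, 243 and 244 with siRNA 2, and 267 and 331 with scramble, a difference of 1.71 between the siRNAs (adjusted p = 0.0575). CXCL11, CASP1 and OASL, chosen after their values were seen, had the siRNAs on opposite sides of scramble as IRF1 did. CXCL11, a chemokine of the same receptor, read 372 and 351 with siRNA 1, 121 and 90.1 with siRNA 2, and 155 and 245 with scramble (adjusted p = 0.0835 between the siRNAs). CASP1, the inflammatory caspase, read 1093 and 1023 with siRNA 1, 545 and 607 with siRNA 2, and 775 and 890 with scramble (adjusted p = 0.0768). OASL, an antiviral protein from the ISGF3 list, read 6708 and 5974 with siRNA 1, 3244 and 2750 with siRNA 2, and 4991 and 4565 with scramble (adjusted p = 0.0655).

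WARS1, a tRNA synthetase induced by interferon gamma, read 2935 and 3050 with siRNA 1, 2902 and 2864 with siRNA 2, and 2104 and 1989 with scramble (adjusted p = 0.0807 and 0.0743). PSMB8, an immunoproteasome subunit, had log2 changes of 0.30 and 0.23, and GBP2, a guanylate-binding protein, had -0.09 and -0.45. Both siRNAs thus gave WARS1 and PSMB8 values above scramble, unlike CXCL10.

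Among 22 regulators of JAK-STAT signalling, 21 were tested and none was called. SOCS7, of the suppressor of cytokine signalling family, read 2229 and 2388 with siRNA 1, 2274 and 2566 with siRNA 2, and 1353 and 1520 with scramble, with log2 changes of 0.69 (adjusted p = 0.0972) and 0.75 (adjusted p = 0.0654). SOCS5 of the same family had log2 changes of 0.62 and 0.58. USP18, which binds IFNAR2 and dampens its signal and is also in the ISGF3 list, had log2 changes of 0.62 (adjusted p = 0.252) and 0.53 (adjusted p = 0.233), and PIAS4, a SUMO ligase that restrains STATs, had 0.40 and 0.39. The list medians were 0.14 with siRNA 1 and 0.08 with siRNA 2.

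Of 17 other receptors, kinases, STATs, IRFs and IRF2-binding proteins, 14 were tested and none was called, with medians of -0.09 and -0.20. STAT4 read 187 and 224 with siRNA 1, 115 and 159 with siRNA 2, and 242 and 216 with scramble (adjusted p = 0.735 and 0.139). IRF4 had log2 changes of -0.32 and -0.37 and IRF5 had -0.28 and -0.34, at adjusted p of 0.374 and above. IRF2BP1, which encodes a binding partner of IRF2 and not an IRF, read 37.8 and 156 with siRNA 1, 114 and 29.7 with siRNA 2, and 118 and 132 with scramble, with 1 knockdown array of each siRNA far below the other (adjusted p = 0.758 and 0.564). Interferon genes themselves read low: of 18 in the table, 2 passed the filter, IFNA17 at 105 and 145 with siRNA 1, 65.0 and 76.6 with siRNA 2, and 134 and 126 with scramble, and IFNL1 at 69.4 and 110 with siRNA 1, 71.4 and 61.0 with siRNA 2, and 55.3 and 97.8 with scramble. IFNB1, a type I interferon made by many cell types, read 3.45 to 7.08 on the 6 arrays.

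**Figure D4:**
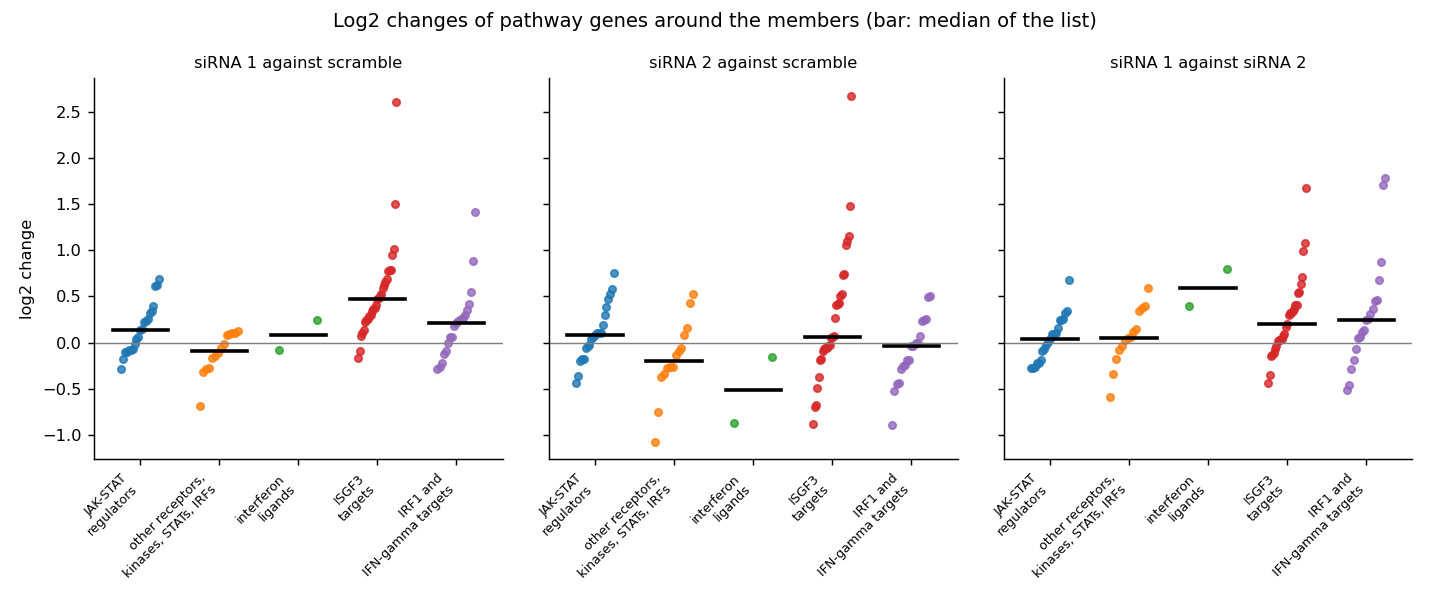
Log2 change (y axis) of each tested gene in 5 lists of interferon pathway genes for siRNA 1 against scramble, siRNA 2 against scramble and siRNA 1 against siRNA 2; each point is a gene and each black bar a list's median. The ISGF3 targets have a median of 0.48 with siRNA 1 and 0.06 with siRNA 2, and IFI44L is the highest point in both.

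The genes whose signals followed IRF9 and IRF1 most closely were found by Pearson's r over the 6 arrays among 6327 genes that varied by at least 0.5 on the log2 scale. The 6 points share arrays and group structure, so r is a description only. CEBPG followed IRF9 most closely (r = 0.997), with 1928 and 1742 with siRNA 1, 1905 and 2037 with siRNA 2, and 1419 and 1453 with scramble, ahead of DPH3 (r = 0.996) and GFPT1 (r = 0.993). KLF3 (r = 0.995), VIPR1 (r = 0.995) and ECH1 (r = 0.994) followed IRF1. KLF3 read 4237 and 3855 with siRNA 1, 2720 and 2589 with siRNA 2, and 3497 and 3511 with scramble. An r of at least 0.95 was reached by 105 genes for IRF9 and by 73 for IRF1.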

How the data were processed

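Total RNA from RT-112 cells was labelled with MessageAmp Premier and hybridised to 6 Affymetrix arrays, per the labels' protocols. Each deposited value is a probe set's intensity on a linear scale, made with Expression Console per the submitters' processing notes. The version and summary method of that program were not given in the sources used here. Array trimmed means were all about 500, as the files show. Of the probe sets, 41091 had 1 gene symbol, 1801 several and 11721 none, with 62 controls; symbols were taken from the platform annotation and checked by Entrez ID, and 41037 matched.

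A probe set was kept when above its array's median on at least 2 arrays. A gene took its brightest probe set, and was tested only when that probe set was kept. limma 3.58.1 (R 4.3.3; lmFit and eBayes, 3 residual degrees of freedom) was run on log2(intensity + 1) over all 6 arrays, and was tested on simulated data. Alternatives were a pseudocount of 16, no filter, quantile normalization, median centring, an intensity trend, a replicate block, the mean of probe sets, the adjusted p alone, and leaving out each array.

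Members and lists were chosen with earlier results of these data known. Genes named were the members, PPP2R2A, up to 4 genes per list with the largest mean change, any called gene, and the 3 genes most like IRF1 and IRF9. CXCL11, CASP1, OASL, MX1, IFIT2, ISG20, SAMD9 and the markers LUM, COL1A1, KRT8, PTPRC, CD3E and ITGAM were added after their values were seen.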

Additional observations from a re-analysis of the deposited data

Results flagged for a closer look

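The 18 tested probe sets of the members and the pathway list genes named above were checked for their order of groups. For 3 probe sets and 7 target genes, both siRNA 1 arrays lay above both scramble arrays and both siRNA 2 arrays lay below them. All of these genes but CXCL10 were named after their values were seen, so the 7 is not a count over the lists. Over all 12735 genes, each read on its brightest probe set, 826 (6.49%) had the siRNA arrays on opposite sides of scramble, in either order. On that measure IRF1 was the only such member. The share over all probe sets was not taken, so the 3 of the 18 cannot be read as more than usual. IFNGR1 211676_s_at differed by 0.60 on the log2 scale between siRNA 1 and siRNA 2 (adjusted p = 0.157). JAK1 1552611_a_at differed by 0.57 (adjusted p = 0.119), although its lower siRNA 1 array read 1632 and its higher scramble array 1629. IRF1 238725_at differed by 0.58 (adjusted p = 0.117). Of the target genes, CXCL10 differed by 1.71, CXCL11 by 1.78, CASP1 by 0.88, OASL by 1.08, MX1 by 1.68, IFIT2 by 0.99 and ISG20 by 0.72. Each difference was tested with limma, and none had an adjusted p under 0.05. The brightest JAK1 and IFNGR1 probe sets did not separate siRNA 2 from scramble in this way.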

How the results depend on the processing

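No member was called under the pseudocount of 16, no filter, quantile normalization, median centring, the mean of probe sets or the adjusted p alone. With an intensity trend, 1 member, IRF9, was called with siRNA 1, 1 with siRNA 2 and 1 for their mean, and 2 member probe sets were called in at least 1 comparison. Leaving out each array in turn gave 0 member calls, and the IRF9 log2 change was 0.57 to 0.88 with siRNA 1, and 0.89 to 1.15 with siRNA 2. Without any one array no gene at all was called, IFI44L, IFI6 and PPP2R2A included. Of 448 recomputed log2 changes of members, 427 stayed within the spread, 18 moved and 3 passed the threshold anew. The mean of probe sets took in probe sets below the filter too, among them IFNGR1 242903_at and JAK1 240613_at. It gave 14 of the 18, and turned the sign of IFNAR1 (-0.16) and JAK1 (-0.11) with siRNA 1 and of IFNAR2 (-0.05) with siRNA 2. For the mean of both siRNAs it turned the sign of IFNAR2 (-0.10), JAK1 (-0.22) and IRF1 (0.03). It also lowered IFNGR1 with siRNA 1 to 0.24 and IFNAR1 between the siRNAs to 0.04. None of these was called. IFNGR2 without a siRNA 2 array gave the other 4. Calls over all genes were 27 to 76 per comparison, and 0 to 472 under the alternatives, with 0 under no filter, the mean of probe sets and the replicate block. Deviations of the A arrays from their group means correlated at 0.038, -0.031 and 0.014 between groups. They showed no shared effect of the letters, and cannot tell whether arrays of the same letter were handled together. The replicate block called 0 members. Signals near or below the array median (69.3 to 76.2) limit IFNGR1 242903_at, JAK1 240613_at and 239695_at, and the interferon genes. They also limit MX1 with siRNA 2, IFI44L with scramble, IRF2BP1, IRF4 and the leukocyte markers.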
